A study of Mus musculus with 4 samples.

Results

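Podoplanin (Pdpn) and Plet1 are a pair of genes whose cell-surface products are used to sort thymic epithelial cells (TECs), and their transcripts were followed across every stromal cell type and both genotypes of a single-cell RNA-seq study of the mouse thymus. They were chosen by symbol, as 2 of the 32285 genes counted, and not by their values. The study profiled CD45-depleted, sorted thymic stroma of untreated C57BL/6 mice at 6 months of age, in 2 libraries of wild-type animals (WT1 and WT2) and 2 libraries of Foxn1 Z/Z animals (ZZ1 and ZZ2). Z/Z mice are homozygous for a LacZ allele that lowers expression of Foxn1, the transcription factor on which TEC differentiation depends. The labels call the control of this line mock and give its genotype as wild type. Each library was made from thymi pooled over several mice, so that the spread between libraries is a spread between pools, and the labels give the sex of the animals inconsistently. Foxn1 itself was counted in TECs at 85.0 and 117 CPM (UMI counts scaled to the same large total in every sum) in WT1 and WT2 and at 52.0 and 70.6 CPM in ZZ1 and ZZ2. Its log2 fold change, Z/Z over WT, was -0.71 with an adjusted p of 0.0837 (edgeR quasi-likelihood test), and the sources used here do not say where the inserted allele lies relative to the counted 3′ end, and these values are no firm check of the labels.

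Podoplanin is a small mucin-type glycoprotein of the plasma membrane. It binds the platelet and dendritic cell receptor CLEC-2 and, through its short cytoplasmic tail, the ezrin, radixin and moesin linkers of the actin cytoskeleton, and it is known as a marker of lymphatic endothelium, of lymphoid tissue fibroblasts and of some epithelia. In the thymus it marks fibroblasts, mesothelium of the capsule and a junctional population of medullary TECs. Plet1 is a glycosylphosphatidylinositol (GPI)-anchored surface protein that marks the early thymic epithelial progenitors of the embryo and is retained on a minor set of postnatal medullary TECs. The study used podoplanin to gate the second of the age-associated TEC states that it described (aaTEC2, Epcam-negative), and claudin 3 to gate the first (aaTEC1, Epcam-positive). It also reported Plet1 expression by these states. From Plet1 and claudin 3 as precursor markers it raised the alternative that the states could be progenitors stalled in differentiation.

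Pdpn (ENSMUSG00000028583) lies on the minus strand of mouse chromosome 4, GRCm38, from 143267431 to 143299564, with 2 annotated transcripts of 5 to 6 exons. Plet1 (ENSMUSG00000032068) lies on the plus strand of chromosome 9 from 50494525 to 50505482, with 4 exons. The antisense gene Plet1os (ENSMUSG00000101304), on the minus strand from 50488795 to 50507823, spans the whole of Plet1. The 250 bases before each annotated start are given because both transcripts differed between the genotypes in TECs and show what promoter sequence the pair does and does not share. They were read from RefSeq's GRCm38.p6 table at chr4:143299565-143299814 (minus strand) and chr9:50494275-50494524 (plus strand), are written 5′ to 3′, and carry in capitals each match to 5 motifs searched on both strands, which were the TATA box (TATAAA), the CCAAT box, the GC box (GGGCGG), an E-box of the kind SNAIL and ZEB factors bind (CACCTG) and the FOXN1 core motif (GACGC).
Pdpn: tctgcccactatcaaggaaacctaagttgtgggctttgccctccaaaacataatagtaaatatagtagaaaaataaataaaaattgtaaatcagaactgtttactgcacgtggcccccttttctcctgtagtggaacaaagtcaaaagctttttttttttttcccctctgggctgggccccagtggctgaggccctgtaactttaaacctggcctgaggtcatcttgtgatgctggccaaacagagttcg
Plet1: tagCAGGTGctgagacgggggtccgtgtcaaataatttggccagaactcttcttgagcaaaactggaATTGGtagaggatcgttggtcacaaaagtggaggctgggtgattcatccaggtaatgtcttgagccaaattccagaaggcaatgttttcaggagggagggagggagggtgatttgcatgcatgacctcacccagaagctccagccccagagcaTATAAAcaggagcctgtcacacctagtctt
Plet1 had a TATAAA 30 bases before its start, a CCAAT on the minus strand 183 bases before it and a CACCTG on the minus strand 247 bases before it. Pdpn had no match to any of the 5. GACGC was in neither window. Among 32851 promoter windows of the same length, TATAAA was in 12.4%, CCAAT in 33.8%, CACCTG in 17.2%, GACGC in 22.6% and GGGCGG in 32.7%. A match describes letters only, and a missing match says only that these letters are not in the window.

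After limits on genes and mitochondrial reads and removal of likely doublets, 9846 of 13981 called barcodes were kept, and 9309 of those were stromal. Of the called barcodes, 55.5% and 39.8% passed the limits in WT1 and WT2 against 83.4% and 80.4% in ZZ1 and ZZ2. They fell into 4302 TECs (558, 104, 2063 and 1577 in WT1, WT2, ZZ1 and ZZ2), fibroblasts (FBs), endothelial cells (ECs), mural cells and a few mesothelial-like and Schwann-like cells. All 10 TEC markers were found in at least 20% of the cells called TECs in every library. Single clusters called TECs had fewer of them at that share. The fewest, 5, were in a cluster led by Nos1, close in size and leading genes to the aaTEC2-like cells described below. Epcam was found in 11.6% of its cells. A cluster with S100b had 8, with Epcam in 23.6% of its cells, so that the TEC name is less firmly marked in both. Called cells held between 8468086 and 50705512 unique molecular identifiers (UMIs, counted transcripts) per library, and WT2 was the smallest. The median UMI count per TEC was 16863.5 and 18315.5 in WT1 and WT2 against 6797 and 7038 in ZZ1 and ZZ2, so that shares of cells with a UMI were compared after every cell was thinned to 2000 UMIs. WT1 and WT2 shared 202 called barcodes, of which 18 were kept in both, and ZZ1 and ZZ2 shared 249, of which 32 were kept in both. Between genotypes, the libraries shared from 0 to 6. All 18 barcodes kept in both WT libraries were of the same lineage in both, with a median of 2303 UMIs in WT1 and 63840.5 in WT2. The genotype comparisons of summed TECs and FBs and the shares of TECs with a UMI were also made without the shared barcodes, whereas levels by class, gates, co-detection and the comparisons within clusters were not.

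Pdpn and Plet1 differed in which lineages carried them. Pdpn was a transcript of FBs and of TECs, whereas Plet1 was nearly all in TECs. FBs held 82.0% and 86.4% of the Pdpn UMIs of kept cells in WT1 and WT2, but 35.8% and 37.1% in ZZ1 and ZZ2. TECs held 15.8% and 9.35% in WT1 and WT2, and 62.6% and 60.1% in ZZ1 and ZZ2. The main carrier of the transcript therefore differed between the genotypes in every library, with FBs first in both WT libraries and TECs first in both Z/Z libraries. These shares also move with the number of TECs and FBs recovered. Of the Plet1 UMIs, TECs held 99.1%, 98.4%, 98.8% and 98.4% in WT1, WT2, ZZ1 and ZZ2.

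**Figure D1:**
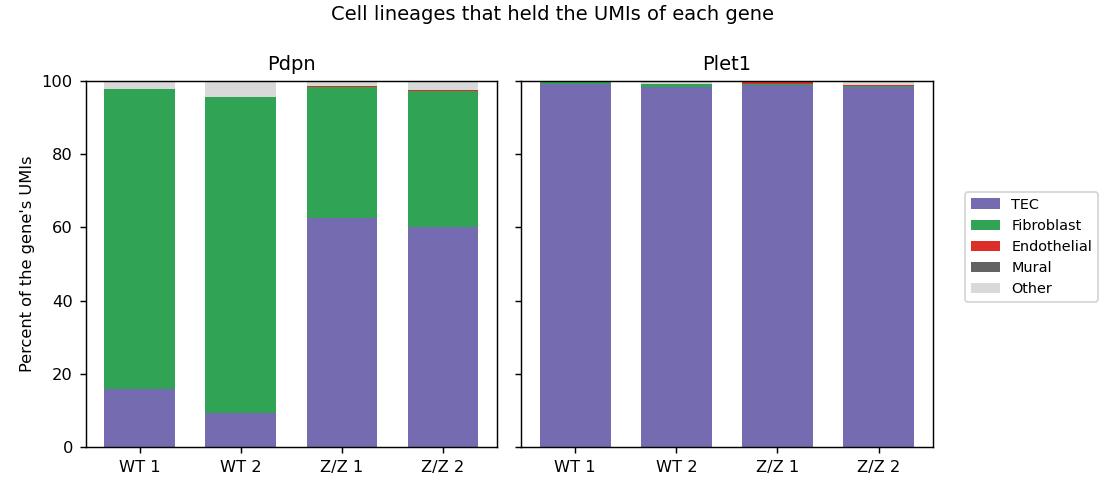
Stacked bars of the percentage of each library's Pdpn (left) and Plet1 (right) UMIs that came from TECs, FBs, ECs, mural cells and other kept cells, in WT1, WT2, ZZ1 and ZZ2. FBs held 82.0% and 86.4% of Pdpn UMIs in the WT libraries and TECs 62.6% and 60.1% in the Z/Z libraries, while TECs held at least 98.4% of Plet1 UMIs throughout.

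TEC classes differed widely in Pdpn. Both members and all marker genes were kept out of the clustering, which gave 16 epithelial clusters, 8 of them named from their markers and the others called by their leading genes. The highest level belonged to an unnamed cluster led by Ctnna2, Ncam2 and S100b, which had 106 cells in ZZ1 and 33 in ZZ2 and none in WT1 or WT2. Pdpn stood there at 1556 CPM in ZZ1 and 1120.5 CPM in ZZ2, and 98.1% and 97.0% of the cells had at least 1 Pdpn UMI. S100b is also a Schwann cell marker, and the 14 Schwann-like cells of the series had no Pdpn UMI. Next came the aaTEC2-like cells, which carry the mesenchymal filament gene Vim and MHC class II with little Epcam, at 806.5 CPM in 550 cells of ZZ1 and 694 CPM in 382 cells of ZZ2. WT1 had 12 such cells, at 559 CPM, and WT2 had none.

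The aaTEC1-like cells, which carry Cldn3, Otog and Kif19a, held Pdpn at 526 CPM in ZZ1 and 475 CPM in ZZ2 against 120.1 CPM in WT1 (15 cells) and 162 CPM in WT2 (11 cells), too few WT cells for a test. mTEC1-like cells, the medullary TECs that make the chemokine Ccl21a, held it at 155, 386, 371 and 403 CPM in WT1, WT2, ZZ1 and ZZ2, with only 4 such cells in WT2. cTEC-like cells, the cortical TECs that express Prss16 and Psmb11, held 95.5, 17.6, 290.3 and 202 CPM in the same order. The levels thus ran from high in the aaTEC2-like cells to lower in the cortical cells. mTEC2-like cells, the Aire-expressing medullary TECs whose cluster was also led by the immune genes Cd52 and S100a8, held 4.75, 4.63, 15.2 and 28.6 CPM. Tuft-like cells held 12.3, 8.52, 164 and 14.6 CPM, the value of ZZ1 resting on 7 cells.

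Averaged over the libraries with at least 20 cells of a class, Pdpn stood at 1338 ± 308 CPM (SD, n = 2) in the S100b cluster, 750.0 ± 79.8 CPM (SD, n = 2) in aaTEC2-like cells and 500.5 ± 36.6 CPM (SD, n = 2) in aaTEC1-like cells. Of the other clusters described here, an unnamed cluster with Ackr4 stood at 394 ± 27.3 CPM (SD, n = 3) and an unnamed cluster led by Rrad at 378 ± 14.1 CPM (SD, n = 2). mTEC1-like cells stood at 309.6 ± 135 CPM (SD, n = 3) and cTEC-like cells at 196 ± 97.5 CPM (SD, n = 3), and the unnamed clusters with Zfp385b (346 CPM) and Adamts19 (289 CPM) lay above and below the mTEC1-like cells. Tuft-like cells at 13.5 ± 1.62 CPM (SD, n = 2) and mTEC2-like cells at 13.3 ± 11.4 CPM (SD, n = 4) were lowest of these. The means of the S100b, aaTEC2-like, aaTEC1-like, Rrad, Zfp385b and Adamts19 clusters came from ZZ1 and ZZ2 only. Those with n = 3 came from WT1, ZZ1 and ZZ2, and that of tuft-like cells from WT1 and ZZ2. The order of the means therefore mixes class with genotype. The ranges of the Ackr4, Rrad and mTEC1-like clusters overlapped, as did those of mTEC1-like and cTEC-like and of tuft-like and mTEC2-like cells. Within each library, however, mTEC1-like cells stood above cTEC-like cells. The S100b cluster and the aaTEC2-like cells did not overlap. These are levels of clusters found in the same cells, and carry no test.

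**Figure D2:**
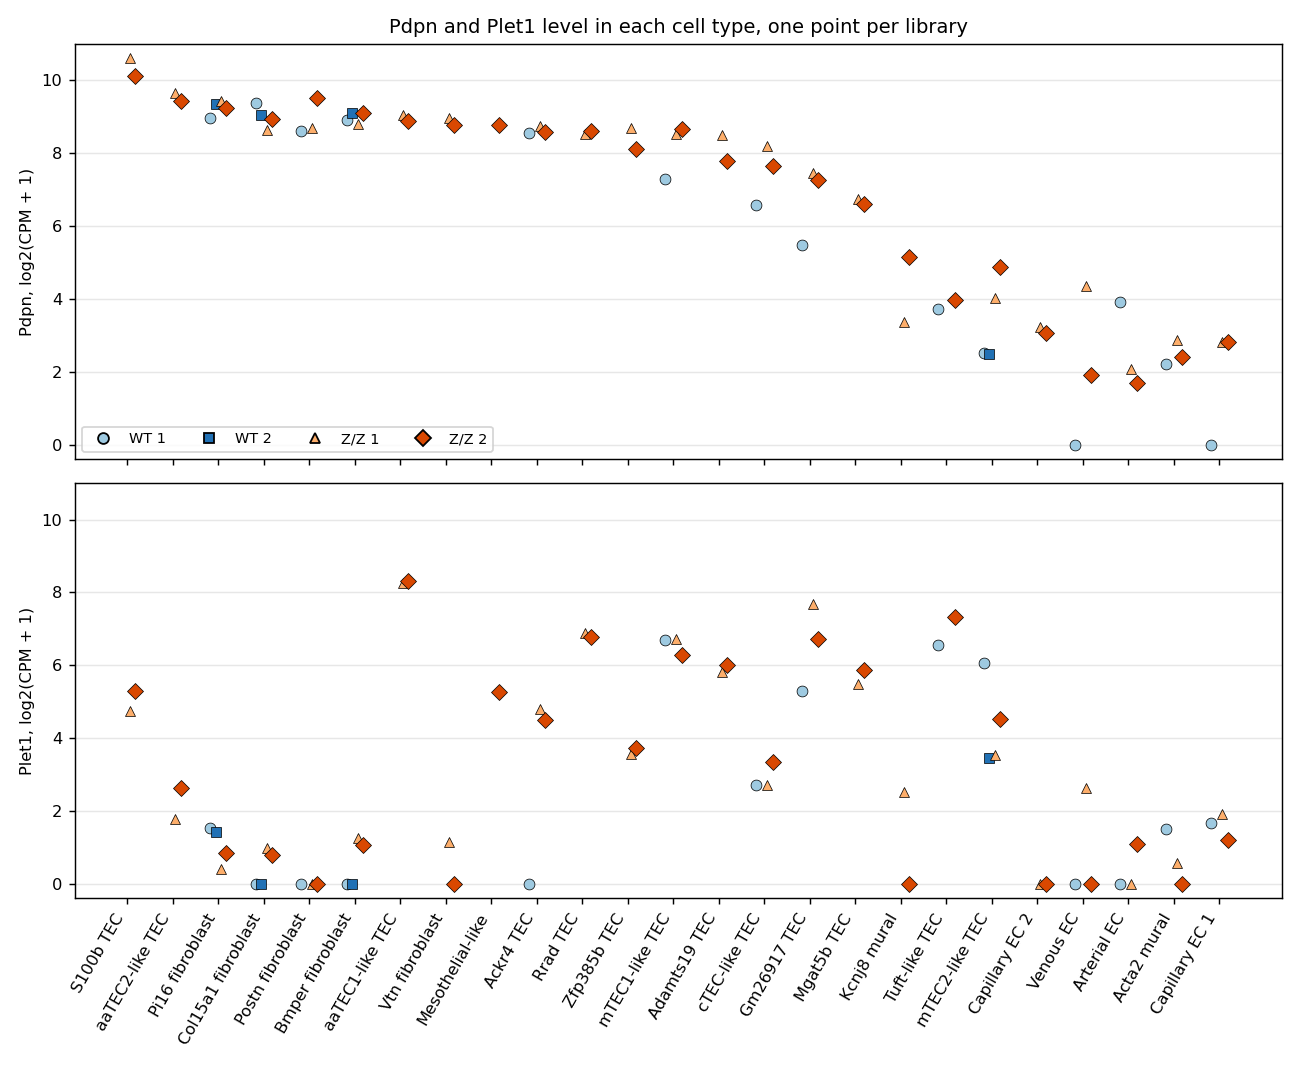
Pdpn (upper panel) and Plet1 (lower panel) levels on a log2(CPM + 1) axis, 1 point per library, ordered by mean Pdpn level. Shown are the TEC, FB, EC, mural and mesothelial-like types with at least 20 cells in a library. Immune, low-UMI and unnamed clusters outside these lineages are not shown. Pdpn was highest in the S100b cluster (1556 and 1120.5 CPM in ZZ1 and ZZ2) and low in ECs, mural cells, tuft-like and mTEC2-like cells, whereas Plet1 was near 0 in FBs and reached 308 and 316 CPM in the aaTEC1-like cells of ZZ1 and ZZ2.

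Every large FB cluster carried Pdpn. The capsular-like cluster led by Pi16, an adventitial fibroblast gene, held 503, 655, 687 and 604 CPM in WT1, WT2, ZZ1 and ZZ2. The cluster with Col15a1 held 659.8, 532, 397 and 487 CPM, and the cluster led by Bmper held 479, 547, 446 and 548 CPM. The genotypes overlapped in the Pi16 and Bmper clusters, whereas in the Col15a1 cluster both Z/Z libraries were below both WT libraries. An unnamed cluster led by Prr16 scored nearest to FBs but below the limit for that name, and was not counted as stromal. It held Pdpn at 550, 725, 880 and 606 CPM in WT1, WT2, ZZ1 and ZZ2, on 30, 10, 34 and 12 cells. Mesothelial-like cells, found only in the Z/Z libraries, held Pdpn at 378 CPM (5 cells in ZZ1) and 434 CPM (27 cells in ZZ2). ECs as a lineage had 3, 0, 44 and 23 Pdpn UMIs in WT1, WT2, ZZ1 and ZZ2. No EC of any library carried 3 or more of 5 lymphatic markers, so that the podoplanin-rich lymphatic endothelium was not seen at this depth. Among barcodes without cells, Pdpn stood at 116, 79.1, 278 and 229.9 CPM in the same order, and the share of ECs with a Pdpn UMI after thinning (0%, 0%, 0.886% and 1.08%) is given as the background in a type with few Pdpn UMIs.

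Plet1 had another distribution over the TEC classes. In aaTEC1-like cells it stood at 25.7 CPM in WT1, 373 CPM in WT2, 308 CPM in ZZ1 and 316 CPM in ZZ2, and 58.3% and 66.7% of these cells had a Plet1 UMI in ZZ1 and ZZ2. The Z/Z libraries were close together and the WT libraries far apart, on 15 and 11 cells. aaTEC2-like cells, which were rich in Pdpn, held Plet1 at 0, 2.44 and 5.24 CPM in WT1, ZZ1 and ZZ2, with a UMI in 1.45% and 2.09% of the cells of ZZ1 and ZZ2. The small classes were also high. Basal- or goblet-like cells, which make the secreted proteins Wfdc2 and Spink5, held from 110.3 CPM in WT2 to 502 CPM in ZZ2, on 2 to 18 cells per library. An unnamed cluster with Foxi1 and the proton pump subunit gene Atp6v1g3 held 153, 279 and 786 CPM in WT1, ZZ1 and ZZ2 on 1, 18 and 8 cells. Neuro-like cells, with the granule protein Chga, held 107, 564 and 199 CPM in WT1, ZZ1 and ZZ2 on 8 or 9 cells each.

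Tuft-like cells, the chemosensory TECs with Trpm5, held Plet1 at 92.4, 42.6, 93.9 and 161 CPM in WT1, WT2, ZZ1 and ZZ2, and mTEC1-like cells held 102, 0, 105 and 77.1 CPM. The mTEC1-like levels overlapped between the genotypes, while in tuft-like cells both Z/Z values were above both WT values, ZZ1 only just, on 6 cells in WT2 and 7 in ZZ1, and this was not tested. The mean level was 312 ± 5.35 CPM (SD, n = 2) in aaTEC1-like cells, 127 ± 48.3 CPM (SD, n = 2) in tuft-like cells, 94.5 ± 15.2 CPM (SD, n = 3) in mTEC1-like cells and 6.75 ± 2.02 CPM (SD, n = 3) in cTEC-like cells, over libraries with at least 20 cells. By the same rule, the Rrad cluster stood at 114 ± 6.37 CPM (SD, n = 2) and an unnamed cluster led by Gm26917 at 116 ± 83.4 CPM (SD, n = 3). The Adamts19 cluster stood at 59.4 ± 6.25 CPM (SD, n = 2) and mTEC2-like cells at 27.2 ± 26.5 CPM (SD, n = 4). The Rrad cluster held 9.88% and 7.48% of the Plet1 UMIs of TECs in ZZ1 and ZZ2. The library values of tuft-like and mTEC1-like cells overlapped. After thinning, a Plet1 UMI was seen in 0.178%, 0%, 0.0843% and 0% of FBs in WT1, WT2, ZZ1 and ZZ2, which is low beside TECs. Plet1 in the barcodes without cells stood at 11.7, 5.28, 48.3 and 43.5 CPM.

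The first comparison asks whether Pdpn in TECs differed between the genotypes. In the summed TECs, Pdpn had 878 UMIs in WT1, 167 in WT2, 10448 in ZZ1 and 6769 in ZZ2, which after library scaling by trimmed mean of M values (TMM) is 66.9, 65.9, 520.0 and 383 CPM. Both Z/Z libraries were far above both WT libraries, and the WT libraries agreed closely. The mean was 66.4 ± 0.707 CPM (SD, n = 2) in WT and 452 ± 96.7 CPM (SD, n = 2) in Z/Z, a 6.79-fold difference. The log2 fold change was 2.76 with a standard error (SE) of 0.20 and an adjusted p of 0.00741 (edgeR quasi-likelihood test over all 18932 genes tested). In that comparison, 22.1% of all genes passed the threshold of 0.05, 10.2% with higher and 11.9% with lower levels in Z/Z. Without TMM factors the 1930 higher and 2245 lower genes became 1351 and 2670 (21.2% in all), as the median log2 fold change of all genes shifted from 0.0027 to -0.15, and the log2 fold change of Pdpn was then 2.61. The close agreement of WT1 and WT2 rests in part on single cells. The top cell held 7.86%, 29.3%, 1.32% and 0.945% of the Pdpn UMIs in WT1, WT2, ZZ1 and ZZ2. Without these cells the levels were 61.9, 47.9, 514 and 382 TMM-scaled CPM.

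FBs did not pass the same test. Pdpn in summed FBs stood at 539, 553, 506 and 572 CPM in WT1, WT2, ZZ1 and ZZ2, and the Z/Z values lay on both sides of the WT values. The log2 fold change was -0.02 with a 95% interval of -0.38 to 0.34 and an adjusted p of 0.969, in a comparison where 2.84% of genes passed (edgeR). Its sign is not stable, as several alternatives gave values just above 0, among them 0.024 with all shared barcodes left out. Within the Pi16, Col15a1 and Bmper clusters the log2 fold changes were 0.23, -0.47 and 0.03, with adjusted p of 0.548, 0.199 and 0.968 (edgeR), and 4.43%, 4.06% and 1.12% of genes passed there. Their 95% intervals, not adjusted for the number of genes, were -0.19 to 0.64, -0.87 to -0.07 and -0.41 to 0.47. That of the Col15a1 cluster lay below 0. The TEC log2 fold change exceeded the FB one by 2.71 with an SE of 0.24 and an adjusted p of 0.000926 in a fit of both lineages with library as a block (edgeR), where 10.6% of genes passed, 5.73% of all genes in this direction. In ECs the log2 fold change was 1.31 with an SE of 0.87 and an adjusted p of 0.445 (edgeR, 2.03% of genes passing), on the few UMIs given above. It was 7.51 without WT1, whose removal leaves WT at 0 UMIs, and 2.88 with no removal of doublets, neither past the threshold. Mural cells had 2, 0, 17 and 13 Pdpn UMIs in the 4 libraries, too few to be tested.

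**Figure D3:**
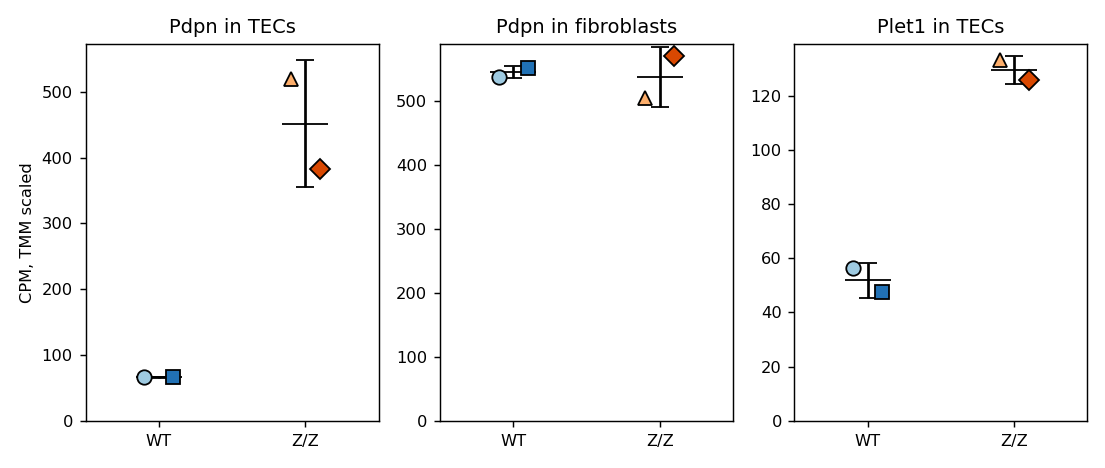
TMM-scaled CPM of Pdpn in summed TECs, Pdpn in summed FBs and Plet1 in summed TECs, 1 point per library, with the mean (long line) and SD (error bar, n = 2) of WT and Z/Z. In TECs both Z/Z libraries sit above both WT libraries for Pdpn (520.0 and 383 against 66.9 and 65.9) and Plet1, whereas FB values overlap.

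The share of TECs with the transcript went the same way as the level. After thinning to 2000 UMIs, 12.4% of TECs in WT1 (95% Clopper-Pearson interval 9.71% to 15.4%) and 15.5% in WT2 (9.15% to 24.0%) had a Pdpn UMI. In ZZ1 the share was 47.0% (44.8% to 49.2%) and in ZZ2 it was 44.8% (42.3% to 47.4%). The Z/Z libraries lay above the WT libraries by 32.0 percentage points on average, with a p of 0.333 in an exact two-sided permutation test, which is the smallest that 2 against 2 libraries allow. With all barcodes shared between libraries left out, the shares were 12.3%, 12.2%, 46.7% and 44.6%. In FBs the shares were 54.6%, 56.4%, 49.8% and 57.0%. The shares in ECs were 0% to 1.08%. Free RNA was estimated at 6.41% to 8.33% of the TEC sums but at 2.24% to 2.85% of the EC sums, so that the EC shares may understate the background in TECs. Intervals of this kind cover counting error only.

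**Figure D4:**
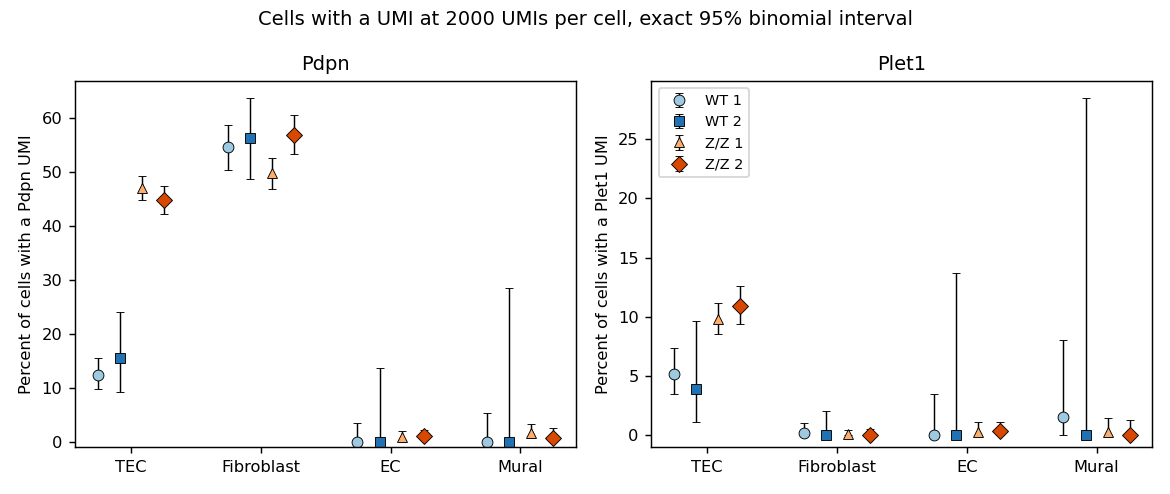
Percentage of cells with at least 1 Pdpn UMI (left) or Plet1 UMI (right) after thinning each cell to 2000 UMIs, for TECs, FBs, ECs and mural cells of each library, with 95% Clopper-Pearson intervals as bars. For Pdpn, TECs of ZZ1 and ZZ2 (47.0% and 44.8%) lie near FBs and above TECs of WT1 and WT2 (12.4% and 15.5%).

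FB transcripts in the TEC sums moved with genotype too. Of 6 FB markers, 4 were higher in Z/Z TECs by the same test (Col3a1, Col1a2, Dcn and Lum), and none was at 0 in any library. Their summed level in TECs was 135, 111, 252 and 286 CPM in WT1, WT2, ZZ1 and ZZ2, which is 0.925%, 0.819%, 1.55% and 1.66% of their level in the FBs of the same library. The part of these transcripts in the Pdpn level of TECs was not tested. Of the other lists, 1 of 6 EC markers, 2 of 7 mural markers and 0 of 7 T lineage markers were higher in Z/Z TECs, with summed levels of 36.8 to 54.2, 214 to 325 and 26.1 to 121 CPM over the 4 libraries. Free RNA was estimated at 6.41% to 8.33% of the TEC sums, and after its subtraction the log2 fold change of Pdpn was 2.85 with an adjusted p of 0.00956 (edgeR).

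TEC sums mix classes whose numbers differed between the genotypes. aaTEC2-like cells were 2.15% and 0% of TECs in WT1 and WT2 and 26.7% and 24.2% in ZZ1 and ZZ2, while mTEC2-like cells, nearly without Pdpn, were 50.2% and 47.1% in WT1 and WT2 and 2.91% and 5.14% in ZZ1 and ZZ2. Of the Pdpn UMIs of Z/Z TECs, aaTEC2-like cells held 25.3% in ZZ1 and 23.5% in ZZ2, and aaTEC1-like cells held 28.3% and 31.7%. Without mTEC2-like cells, Pdpn stood at 163, 171, 539 and 424 TMM-scaled CPM, with a log2 fold change of 1.53 and an adjusted p of 0.0259 (edgeR, 2.95% of genes passing). Without aaTEC2-like cells it was 2.62 with an adjusted p of 0.0102, and without the S100b cluster it was 2.66 with an adjusted p of 0.00706 (edgeR). Both Z/Z libraries stayed above both WT libraries in each of these sums.

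Without mTEC2-like, aaTEC1-like and aaTEC2-like cells together, the log2 fold change of Pdpn was 1.20 with an adjusted p of 0.0624, where 1.06% of genes passed (edgeR). That sum still held the S100b cluster, which had no cells in WT. The cluster held 1450 of the 4831 Pdpn UMIs left in ZZ1 and 295 of the 2975 left in ZZ2. The difference with this cluster left out as well was not tested. Only mTEC2-like cells numbered at least 20 in every library, so that a comparison within a class was made there. Pdpn in mTEC2-like cells had 35, 7, 20 and 62 UMIs, or 4.79, 4.69, 15.3 and 29.8 TMM-scaled CPM, with both Z/Z libraries above both WT libraries. The log2 fold change was 2.25 with a 95% interval of 1.06 to 3.45 and an adjusted p of 0.277, and 0.00797% of genes passed (edgeR). With no filter on low counts the same fit gave 2.24 with an adjusted p of 0.00291 (edgeR, 4.95% of genes passing). The call thus depends on the filter. Free RNA was not subtracted within this class. Among barcodes without cells, Pdpn stood at 116, 79.1, 278 and 229.9 CPM in WT1, WT2, ZZ1 and ZZ2, also higher in both Z/Z libraries. The part of free RNA in the low mTEC2-like levels was not tested. With all barcodes shared between libraries left out, which removed 54 of the 104 TECs of WT2, Pdpn in TECs had a log2 fold change of 2.36 with an adjusted p of 0.0871, and 1 gene of 17737 passed (0.00564%, edgeR). The TEC UMIs of WT2 fell from 2424051 to 392586 and its Pdpn UMIs from 167 to 46. Most of the WT2 sum thus came from barcodes also called in another library. With each shared barcode kept in the library where it had more UMIs, the log2 fold change of Pdpn was 2.76 with an adjusted p of 0.00759 (edgeR). In sums of TECs thinned to equal depth the log2 fold change of Pdpn was 2.38 (edgeR). With a looser limit of 500 genes per cell, clustering anew gave 316, 69, 2251 and 1676 TECs and a log2 fold change of 1.65 with an adjusted p of 0.0251 (edgeR). WT1 and WT2 thus had fewer TECs than the 558 and 104 of the main limit. Before TMM scaling, Pdpn stood at 164 and 151 CPM in WT1 and WT2 there, near the 168 and 176 CPM without mTEC2-like cells. Which cells were no longer called TECs was not tested.

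**Figure D5:**
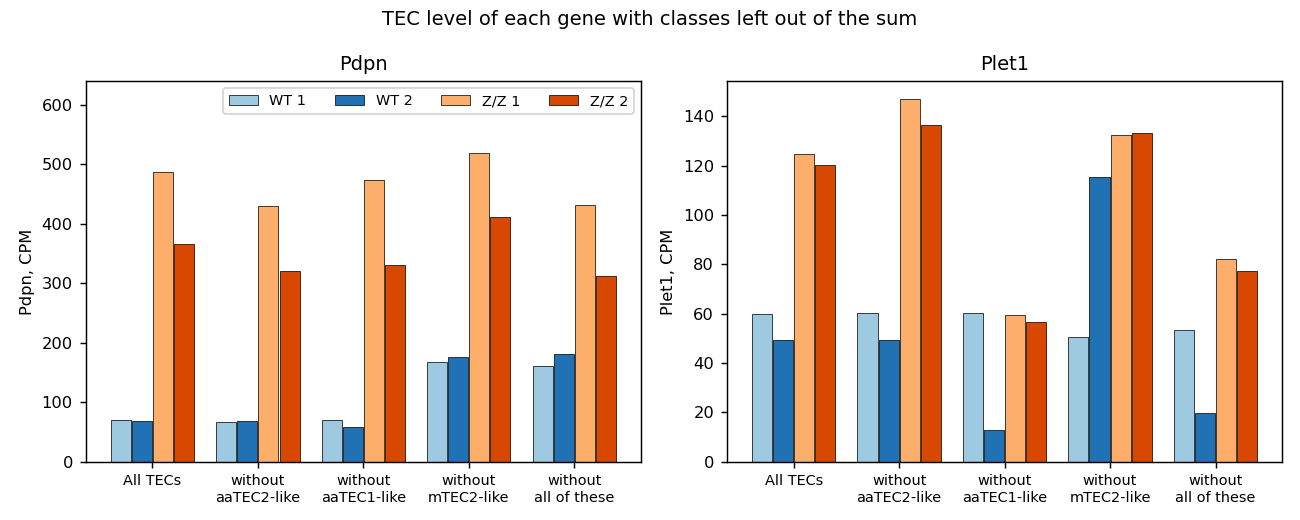
Bars of the Pdpn (left) and Plet1 (right) level in summed TECs of each library, in CPM before TMM scaling, for all TECs and with the named classes left out. Pdpn of ZZ1 and ZZ2 stayed above WT1 and WT2 in every sum, with 168 and 176 CPM in WT1 and WT2 and 519 and 411 CPM in ZZ1 and ZZ2 without mTEC2-like cells. Plet1 without aaTEC1-like cells stood at 60.4 and 12.9 CPM in WT1 and WT2 against 59.6 and 56.8 CPM in ZZ1 and ZZ2.

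Plet1 was also higher in Z/Z TECs. It had 740, 120, 2673 and 2219 UMIs in the TECs of WT1, WT2, ZZ1 and ZZ2, or 56.4, 47.4, 133 and 126 CPM after TMM scaling. The groups did not overlap, with a mean of 51.9 ± 6.39 CPM (SD, n = 2) in WT and 129 ± 5.22 CPM (SD, n = 2) in Z/Z, a 2.47-fold difference. The log2 fold change was 1.31 with an SE of 0.15 and an adjusted p of 0.00923 (edgeR, in the comparison where 22.1% of genes passed). Single cells weighed on the WT values. In WT1, 258 of the 740 UMIs (34.9%) came from 1 mTEC2-like cell, and in WT2, 68 of 120 (56.7%) came from 1 aaTEC1-like cell, against 3.18% and 4.06% for the top cells of ZZ1 and ZZ2. Without the top cell of each library, the log2 fold change was 2.06 with an adjusted p of 0.0109 (edgeR).

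After thinning, 5.17% and 3.88% of TECs had a Plet1 UMI in WT1 and WT2 against 9.77% and 10.9% in ZZ1 and ZZ2, and 5.43%, 2.04%, 8.78% and 10.6% in the same order without the shared barcodes. The average difference was 5.81 percentage points with a p of 0.333, the smallest that the exact two-sided permutation test allows with 2 against 2, and the interval of WT2 (1.07% to 9.65%) reached past the lower bound of ZZ1 (8.51%). aaTEC1-like cells held 64.8% and 64.3% of the Plet1 UMIs of TECs in ZZ1 and ZZ2. They held 0.811% in WT1, where mTEC2-like cells held 65.7%, and 76.7% in WT2. They were 2.69% and 10.6% of TECs in WT1 and WT2 and 12.2% and 11.6% in ZZ1 and ZZ2. Without them, Plet1 stood at 57.7, 12.3, 63.8 and 58.7 TMM-scaled CPM, with a log2 fold change of 0.73 and an adjusted p of 0.439 (edgeR). WT1 then stood close to both Z/Z libraries, and only WT2 was low. Of the 734 UMIs left in WT1, 258 were in a single cell. Without mTEC2-like cells the log2 fold change was 0.85 with an adjusted p of 0.243, and the barcode setting that left out all shared barcodes gave 1.47 with an adjusted p of 0.112 (edgeR). In the latter setting the Plet1 UMIs fell from 120 to 11 in WT2 and from 2673 to 1144 in ZZ1. In sums of TECs thinned to equal depth the log2 fold change of Plet1 was 0.88 with an adjusted p of 0.0265 (edgeR). With the limit of 500 genes per cell, which gave fewer WT TECs as described above, it was 0.96 with an adjusted p of 0.174 (edgeR).

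Within mTEC2-like cells, Plet1 had 486, 15, 14 and 48 UMIs in WT1, WT2, ZZ1 and ZZ2, with WT1 far above the rest and 258 of its UMIs in the cell named above. The log2 fold change was -1.21 with an adjusted p of 0.585 (edgeR), and without WT1 it was 0.76. The antisense gene Plet1os had 60, 18, 236 and 85 UMIs in TECs, or 4.58, 7.11, 11.7 and 4.81 CPM after TMM scaling. Its values overlapped between the genotypes, with a log2 fold change of 0.56 and an adjusted p of 0.486 (edgeR). The sources used here do not say whether counting used strand, and reads of Plet1 and Plet1os may not be fully told apart.

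The transcripts overlapped in few cells. After thinning, 2 TECs of WT1, 2 of WT2, 73 of ZZ1 and 64 of ZZ2 had a UMI of both genes, which is 0.369%, 1.94%, 3.62% and 4.25% of TECs. The product of the single shares in the same cells was 0.639%, 0.603%, 4.60% and 4.88%. In the Z/Z libraries the observed share was thus slightly below that product. In the Z/Z libraries Pdpn was seen more often in TECs without an Epcam UMI than with one, at 52.2% against 41.9% in ZZ1 and 56.0% against 36.9% in ZZ2. In WT1 the shares were 15.2% against 10.6%, and in WT2 they were 12.5% against 16.9%, the other way round. Plet1 was seen less often in TECs without an Epcam UMI in every library, at 3.79% against 6.04% in WT1, 0% against 5.63% in WT2, 4.58% against 14.9% in ZZ1 and 3.21% against 16.3% in ZZ2. Within aaTEC1-like cells, which carried both, 51.2% in ZZ1 and 61.2% in ZZ2 had a UMI of both genes without thinning, above the product of the single shares in the same cells (48.4% and 55.0%).

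The study's antibody gates were mirrored in part in RNA, by whether a cell had a UMI of each gene. The Ly51 and UEA1 exclusions of its aaTEC1 gate were left out, so that the Cldn3 values below do not describe that gate in full. Cells without Epcam and Pdgfra and with H2-Aa and Pdpn numbered 23, 3, 357 and 203 in WT1, WT2, ZZ1 and ZZ2. They were 1.76%, 0.935%, 8.19% and 6.11% of stromal cells. In ZZ1 and ZZ2, 72.8% and 77.3% of them were aaTEC2-like, whereas without the Pdpn criterion the shares were 53.6% and 45.6% and ECs made up 13.2% and 29.4%. In WT1, 47.8% of the gated cells were FBs and 26.1% were aaTEC2-like. With the criterion, ECs among the gated cells went from 75 to 3 in ZZ1 and from 114 to 4 in ZZ2. Cells with Epcam, H2-Aa and Cldn3 were aaTEC1-like in 5.06%, 16.1%, 67.1% and 54.5% in WT1, WT2, ZZ1 and ZZ2. Adding a Plet1 UMI gave 7.32%, 30.0%, 77.9% and 70.3%. Before that addition, mTEC2-like cells made up 74.2%, 64.5%, 13.3% and 23.0% of the gated cells in the same order. The Pdpn gate held 47.3% and 41.1% of the aaTEC2-like cells of ZZ1 and ZZ2, against 55.5% and 46.3% without the Pdpn criterion. The Cldn3 gate held 66.3% and 72.7% of their aaTEC1-like cells, and 44.8% and 55.7% once a Plet1 UMI was asked for. A cell without a UMI of a gene may still express it, and the classes themselves were found in the same transcriptomes. Cldn3 was among the markers that named aaTEC1-like cells, and H2-Aa, Epcam and Pdgfra entered the naming of aaTEC2-like cells. The shares of these classes in the gates were thus set in part by the naming. Pdpn and Plet1 took no part in it.

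Genes with the most similar pattern were ranked by Pearson correlation of log2(CPM + 1) over 76 class-by-library sums among 14918 genes. The sums share libraries and depth, so these are descriptions. For Pdpn the nearest were the growth factor receptor gene Egfr (r = 0.87), Olfml1 (0.87), the lysophosphatidic acid receptor gene Lpar1 (0.85), the podosome adaptor gene Sh3pxd2b (0.85) and the small GTPase gene Rhou (0.83). For Plet1 they were the potassium channel gene Kcnb2, the claudin gene Cldn9, the membrane-anchored serine protease gene Prss8, the tight junction gene Cgn and Wwc1, each with an r of 0.87. Pdpn and Plet1 correlated with each other at 0.21. Plet1 and Plet1os correlated at 0.76.

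Genes that work with podoplanin or travel with Plet1 were read in the TEC comparison from lists of 50 genes, 48 of them tested. In all, 11 were higher and 5 lower in Z/Z, which is 33.3% of those tested, beside 22.1% of all genes. Without TMM factors the counts were 7 and 7. Among the receptor, surface partners and ligands, 3 of 7 tested genes were higher and none lower. The hyaluronan receptor Cd44, which binds podoplanin, stood at 145, 124, 251 and 239 CPM in WT1, WT2, ZZ1 and ZZ2 (log2 fold change 0.86), and the tetraspanin Cd9 at 306, 327, 594 and 533 CPM (0.83). The chemokine Ccl21a stood at 571, 534, 805 and 1082 CPM (0.77), but it has near-identical copies, so that its counts are uncertain, and its sign turned under 3 alternatives. Itgb1, Lgals8 and Ccl19 had log2 fold changes of 0.45, 0.45 and -0.15 and did not pass. Clec1b, which encodes CLEC-2, was below the filter in TECs. The median over the list was 0.45, and that over all genes tested was 0.0027.

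Among the linkers to the cytoskeleton and the enzymes that act on it, 3 of 7 were higher and 1 lower, with a median of 0.34. Radixin (Rdx) stood at 150.4, 119.7, 263 and 259 CPM (log2 fold change 0.94), and the related linker moesin (Msn) at 256, 241, 106 and 133 CPM (-1.06), while ezrin (Ezr) had 0.17 and did not pass. Radixin and moesin hence differed in opposite directions, with no overlap between the genotypes in either. The small GTPase Rhoc (1.26) and the kinase Rock2 (0.63) were higher, and Rhoa (0.07) and Rock1 (0.34) did not pass. None of the 4 genes of O-glycan synthesis passed in edgeR or in DESeq2, also at an unadjusted p under 0.05 (median 0.21). Of 5 tested regulators, Fos (1014, 1243, 3590 and 2975 CPM, log2 fold change 1.54) and Jun (1260, 1336, 4034 and 3804 CPM, 1.59), subunits of the AP-1 factor and genes that respond to tissue dissociation, were higher, and Klf4 (0.28), Bmi1 (-0.11) and Prox1 (-0.61) did not pass. The median of the regulators was 0.28, and Sox18 was below the filter.

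The list drawn up as surface markers of thymic epithelial progenitors beside Plet1 was mixed, with 2 of 11 higher and 4 lower and a median of -0.52. Not all of it is particular to progenitors. The study gives Ly6d as a marker of its basal TEC subset, and Ly6d also served here to name the basal- or goblet-like cells. The integrin subunit Itgb4 (log2 fold change 1.13) and Cd24a (0.67) were higher. Ly6d stood at 203, 117, 13.5 and 38.8 CPM (-2.63), the tight junction gene Cldn4 at 215, 275, 96.9 and 109.97 CPM (-1.24) and Psca at 23.0, 30.8, 3.43 and 6.80 CPM (-2.38), with no overlap between the genotypes in any of these 3. Plet1 was hence higher in the same sums in which these were lower. Ly6a (0.64), Itga6 (-0.52) and Cldn3 (0.59) did not pass. None of 8 genes for making and attaching the GPI anchor passed in edgeR or DESeq2, with 2 and 1 at an unadjusted p under 0.05 (median 0.25), and among 6 other GPI-anchored proteins Ly6e was higher (1.18) while Cd55 (-1.38), Cd59a (-1.12) and Thy1 (-1.21) did not pass (median -1.17). Without mTEC2-like cells, 2 of 47 tested genes of the lists passed, where 2.95% of all genes did, and with all shared barcodes left out none did in edgeR (11 of 48 at an unadjusted p under 0.05), where the same fit called 1 gene in all.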

How the data were processed

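Stromal cells of 4 libraries (2 WT, 2 Z/Z) were profiled by droplet single-cell RNA-seq. The authors deposited whole-number UMI counts per gene and barcode, from Cell Ranger (7.0.1 per the file headers, 7.01 per the submitters' processing notes) on GRCm38 (mm10), both for called cells and for all barcodes. Cells with more than 1000 genes and under 20% mitochondrial UMIs were kept. Scrublet's own threshold marked 13 cells (0.127%) and was judged not to have worked, so that each library's top 3.9% of doublet scores were taken out (399 cells). Counts of 105 ribosomal and haemoglobin features were left out. Cells were clustered with scanpy 1.11.5 and Leiden (leidenalg 0.10.2, 3500 variable genes, resolution 1), with Pdpn, Plet1 and all marker and list genes (160) held out, and named "-like" from markers only. A cell "had" a gene when it had at least 1 UMI.

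Counts were summed per library and lineage and tested with edgeR 4.0.16 (quasi-likelihood test, TMM factors, filterByExpr, R 4.3.3), with Benjamini-Hochberg adjustment over all genes tested and a threshold of 0.05. Libraries were the replicates, and nothing but the pooling of mice says how they differ, so that p-values measure the spread between these pools. Standard errors and intervals of log2 fold changes come from the same test and its degrees of freedom. The code was tested on simulated counts with known folds. Shares of cells were compared with an exact permutation test over libraries after thinning to 2000 UMIs. Alternatives were DESeq2 1.42.0, no TMM factors, no filter, other cell limits, free RNA subtraction, removal of shared barcodes, removal of classes, and leaving out each library. The genes, lists and classes were chosen with earlier results of these data known. Named genes were Pdpn, Plet1, every list gene past the threshold except 1 that is not reported here, up to 3 others of each list by highest level in TECs, and the 5 genes most correlated with each member among those reaching 20 CPM. Sums of at least 20 cells and 50000 UMIs entered the correlations. Same-numbered libraries did not deviate together (r = -0.09 over genes in TECs), so that the numbers do not pair them.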

Additional observations from a re-analysis of the deposited data

Results flagged for a closer look

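The log2 fold change of Pdpn, Z/Z over WT, was larger in TECs than in FBs by 2.71 (SE 0.24, adjusted p = 0.000926, edgeR quasi-likelihood test of the difference). It was flagged because the same contrast differed between a pair of lineages. Both Z/Z libraries were above both WT libraries in TECs (520.0 and 383 against 66.9 and 65.9 CPM), while FBs stood at 506 and 572 against 539 and 553 CPM. Over the 15 alternatives run, the difference ranged from 1.64 to 3.02.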

How the results depend on the processing

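Pdpn in TECs kept its direction in all 22 alternatives, and passed the threshold in 20 of them (1.53 to 3.01). With all shared barcodes left out it was 2.36, and without mTEC2-like, aaTEC1-like and aaTEC2-like cells together 1.20, both no longer past the threshold. The latter sum still held the S100b cluster, found only in Z/Z. Plet1 in TECs kept its direction in all 22 and passed in 16. It did not pass with all shared barcodes left out (1.47), with a limit of 500 genes per cell (0.96), without aaTEC1-like cells (0.73), without mTEC2-like cells (0.85), without all 3 classes (1.03), or without ZZ1 (1.30, adjusted p = 0.056, edgeR), and leaving out each library in turn gave 1.22 to 1.43. Settings that leave out cells or libraries use fewer cells by construction, and otherwise the cause was not tested. The limit of 500 genes also gave fewer WT TECs than the main limit. Settings that leave out a class, the top cell or a single FB cluster, and the one keeping shared barcodes once, were chosen after seeing the data, except the removal of aaTEC2-like cells for Pdpn and of aaTEC1-like cells for Plet1. Resolution 2 was likewise added for Pdpn in FBs, in ECs and in the difference of TECs and FBs.

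Pdpn in FBs stood near 0 and turned sign, none past the threshold, with no filter (0.017), thinning (0.038), free RNA subtracted (0.0044), shared barcodes left out (0.024), under 10% mitochondrial UMIs (0.0087), in the Bmper cluster (0.032) and in the Pi16 cluster (0.23), and leaving out each library gave -0.11 to 0.071. The Col15a1 cluster kept the sign, at -0.47, and did not pass either. In mTEC2-like cells, no filter brought Pdpn (2.24) and Plet1 (-1.22) past the threshold, where 4.95% of all genes passed. Leaving out each library gave -1.95 to 0.76 for Plet1 there, the highest without WT1. The 16 list genes past the threshold became 0 with shared barcodes left out, 2 without mTEC2-like cells, 1 without all 3 classes, and 2 (without ZZ1) to 16 with each library left out. Of all genes, 22.1% passed at first and 0.00564%, 2.95%, 1.06% and (without ZZ1) 2.72% in these settings. Among list genes, Ccl21a turned with thinning (-0.30), shared barcodes left out (-0.37) and without mTEC2-like cells (-0.40), Rock2 without mTEC2-like cells (-0.030) and Cd24a with thinning (-0.37).

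With the replicate number as a block, Pdpn in TECs was 2.76 (adjusted p = 0.0141, edgeR), Plet1 1.32 (adjusted p = 0.0197, edgeR) and Pdpn in FBs -0.02, and 2544 genes were called in TECs against 4175. The test of TECs against FBs already had library as a block. Pdpn in mural cells was below the filter, and in ECs it was below it with thinning, with free RNA subtracted and without ZZ1 or ZZ2, so that these gave no value. WT2, with 104 TECs, limits what could be detected.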
